A study of Rattus norvegicus with 11 samples.

Results

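The heat shock proteins and DnaJ chaperones were examined in the medial prefrontal cortex of male rats aged 4 months. In the heroin group, 6 rats had self-administered heroin. In the control group, 5 rats had received saline infusions yoked to a heroin rat. All 11 rats, controls included, had spent 14 days in abstinence and had then been given an extinction session. RNA of the dissected cortex of each rat was hybridised to its own single-colour Agilent array, so a level is an average over all cell types of the tissue, and fewer cells of a type and less RNA per cell cannot be told apart. The members were the probes whose gene name on the array begins with Dnaj or with Hspa, Hspb, Hspc, Hspd, Hspe or Hsph. They came to 84 probes of 54 genes among the 41012 non-control probes.

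Heat shock proteins are chaperones, which bind unfolded or partly folded proteins and keep them from aggregating. Hsp70 proteins hold and release their clients through cycles of ATP hydrolysis, DnaJ proteins (also called Hsp40) deliver clients and start that hydrolysis, Hsp110 proteins exchange the nucleotide, and Hsp90 takes over late steps of folding for kinases and steroid receptors. In neurons a DnaJ protein and Hsc70 also strip the clathrin coat from synaptic vesicles. Some of these genes run at a steady level in every cell, while others are switched on by heat shock factor 1 after heat, oxidative or other stress, and those of the endoplasmic reticulum answer to unfolded protein in that compartment.

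Promoter letters known from these modes of control were searched first. RefSeq windows from 250 bases before to 50 bases after the annotated start (build GRCr8) were at hand for 43 of the 54 genes, all of which matched a RefSeq gene. The heat shock element consists of GAA blocks that alternate with TTC blocks at a spacing of 2 bases. A pair of blocks, GAANNTTC or TTCNNGAA (each reads the same on both strands), stood in 15 of the 43 windows, or 34.9%, against 15.9% of all 33469 promoter windows. A run of 3 blocks, which contains overlapping pairs, stood in 5 of the 43 (11.6%), against 0.798% of all windows, and those 5 genes were Dnaja1, Hspa8, Hspd1, Hspe1 and Hsph1. In Dnaja1 the run reached past the annotated start, and it is not shown. The endoplasmic reticulum stress element, searched on both strands, stood in 2 of the 43 (Hspa5 and Dnajc3, 4.65%), against 0.0657% of all windows. These matches describe letters, not bound sites. The windows below are examples that hold the heat shock or the endoplasmic reticulum element in genes described below. Other genes described below, among them Dnajb1, Dnajb6, Hspa2, Hspa9a, Hspb6 and Hspb8, also hold a pair, and these are not shown. Hspa8 holds a further run of 3 blocks, at chr8:50080277-50080337, that is not shown either. Capitals mark matched blocks, but in the Hspb1 window a further matching pair stands in lower case near its right end.
Hspa8, chr8:50080435-50080495, plus strand: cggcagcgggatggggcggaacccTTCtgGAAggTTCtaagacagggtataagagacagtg
Hsph1, chr12:10427308-10427367, plus strand: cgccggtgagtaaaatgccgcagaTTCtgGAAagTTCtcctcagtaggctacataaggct
Hspd1, chr9:64084238-64084287, minus strand: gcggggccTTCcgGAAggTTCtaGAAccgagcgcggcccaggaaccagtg
Hspe1, chr9:64084238-64084303, plus strand: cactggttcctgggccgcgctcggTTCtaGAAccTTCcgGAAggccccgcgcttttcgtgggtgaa
Hspb1, chr12:26432399-26432454, minus strand: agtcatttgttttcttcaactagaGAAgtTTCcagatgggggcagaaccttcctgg
Hspa5, chr3:38452949-38453015, plus strand: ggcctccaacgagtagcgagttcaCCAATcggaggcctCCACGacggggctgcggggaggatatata
Dnajc3, chr15:102432510-102432576, plus strand: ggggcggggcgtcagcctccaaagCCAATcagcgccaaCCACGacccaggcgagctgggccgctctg
Hspd1 and Hspe1, the mitochondrial chaperonin and its lid, are neighbours that are transcribed away from each other, and their windows show the same heat shock element read from opposite strands. The windows of Dnaja3, Dnajb5 and Hspa1a held neither pair of blocks. Bases outside the windows were not searched, so whether these genes hold an element there was not tested.

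Of the 84 member probes, 77 probes of 50 genes were detected (scored well above background) on all 11 arrays and were tested. The other 7 probes were detected on fewer arrays and were not tested. Probes of Dnajc5g, Hspa1l and Hspb7 were detected on no array. The Hspa1b probe was detected on 2, both from saline rats. The Hspb2 probe was detected on 6 arrays, and further probes of Dnajc13 and Hspa12a were detected on 5 and 4. Signals below are intensities divided by the median intensity of the same array, which ranged from 42.7 to 83.2. All member differences are log2 signal in heroin minus saline. Probe positions are those of the array files in rat build rn3. All heroin arrays lay at position 4 of their slides and all saline arrays at position 3, so slide position and group cannot be told apart. Scan times in the file headers placed a heroin and a saline rat of the same replicate number in each of 5 scans, and heroin replicate 1 in a scan of its own. Medial prefrontal cortex was the labelled tissue, and 6 of 6 listed cortical neuron markers were detected on every array.

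In most chaperone probes the heroin mean lay above the saline mean, as it did for most probes on these arrays. The difference was above 0 for 67 of the 77 tested probes (87%) and below 0 for 10, while 78.7% of all 25555 tested probes lay above 0. The median difference was 0.26 for the members and 0.18 for all tested probes. After quantile normalization, which gives all arrays the same distribution, these medians were 0.05 and 0.01. Then 50 of the 77 members lay above 0, against 53.2% of all tested probes. Each array was scaled to its median, and the source of the shift that most probes shared was not tested.

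By limma with the study's thresholds, an unadjusted p under 0.02 and at least 1.4-fold, 2 of the 77 probes were higher in heroin, against 1.79% of all tested probes, and 0 were lower, against 0.927%. These were the Dnaja3 probe and 1 of the 2 Dnajb5 probes. After quantile normalization 0 of the 77 passed both thresholds, against 1.79% of all probes in either direction. At an unadjusted limma p under 0.05, 20 members were higher and 1 was lower, where 15.7% and 2.83% of all probes were. After quantile normalization 2 were higher and 1 was lower, against 4.03% and 3.68%. After Benjamini-Hochberg adjustment over all 25555 probes limma called 0 members at an adjusted p under 0.05. The smallest adjusted p of a member was 0.263. At an unadjusted p under 0.05 in either direction limma called 21 members, against 18.5% of all tested probes, and the unequal-variance test named in the methods called 18, against 16.1%.

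These counts moved with single rats, and so did those over all probes. Without heroin replicate 3 the count past both thresholds was 0 of 77, where 1.86% of all tested probes passed in either direction, and without saline replicate 5 it was 13, where 9.21% passed. It was 4 without heroin replicate 4, against 2.62% of all probes, and 4 without heroin replicate 6, against 3.08%. The count higher at an unadjusted limma p under 0.05 was 13 without heroin replicate 3, against 9.99% of all probes, and 42 without saline replicate 5, against 28.8%. It was 31 without heroin replicate 6 (19.2% of all probes), 12 when saline replicate 2 (7.8%) or saline replicate 3 (7.94%) was left out. The number of probes above 0 was 63 of 77 without heroin replicate 3, against 77.2% of all probes.

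The 5 scans that held both groups were also fitted as a block, to which heroin replicate 1 adds nothing. Then 2 members passed both thresholds, against 3.15% of all tested probes in either direction. At an unadjusted limma p under 0.05 there were 11 members, against 10.6%. Among the 10 probes that lost this level were those of Dnaja1, Dnajb4, Hspb7, Hspb8 and the brighter Hspa9a probe.

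**Figure D1:**
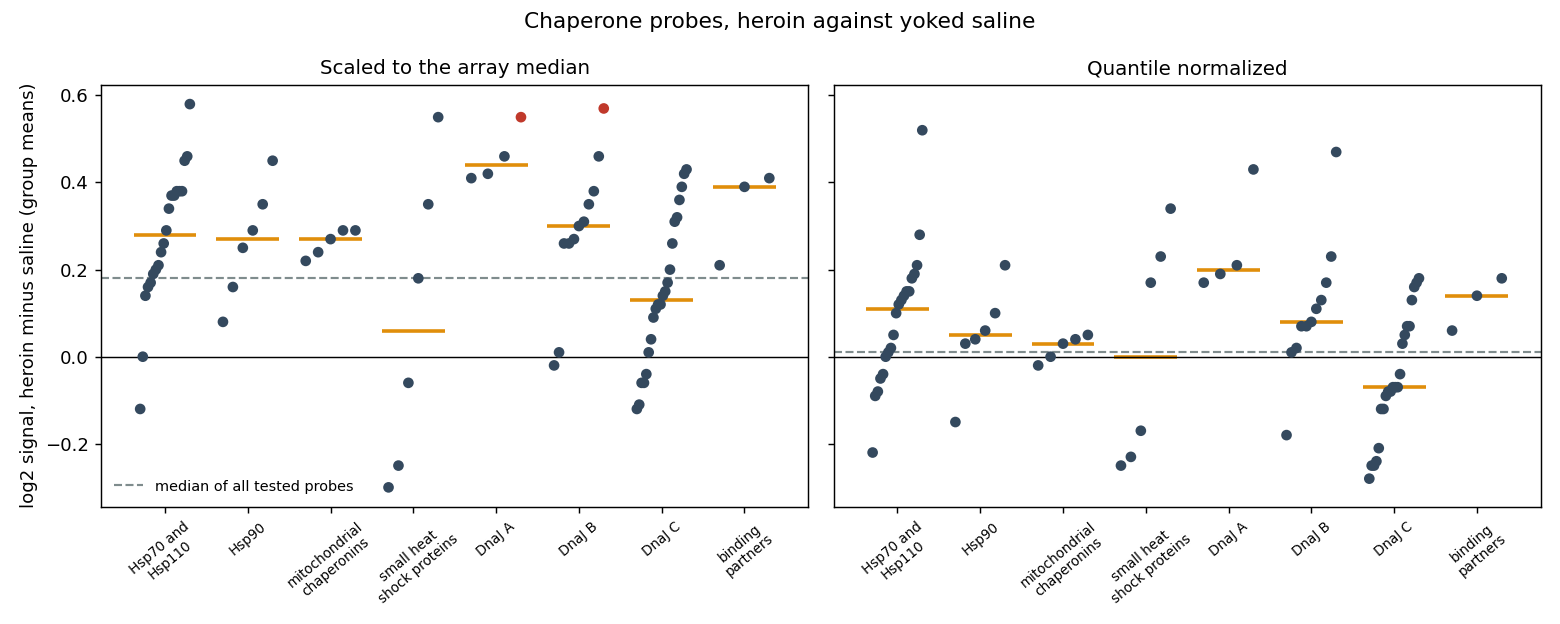
Difference in log2 signal (heroin minus saline, group means of 6 and 5 rats) of the 77 tested chaperone probes by class, with each array scaled to its median (left) and after quantile normalization (right). Points are probes, red points passed both thresholds, orange bars are class medians, and the dashed line is the median of all tested probes. DnaJ A lay highest by median (0.44) and the small heat shock proteins spread from -0.30 to 0.55.

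The type A DnaJ proteins, the closest relatives of the bacterial DnaJ, had the largest class median. All 4 of their probes lay above 0, by 0.41 to 0.55, with a median of 0.44. All 4 had an unadjusted limma p under 0.05, where 15.7% of all tested probes were higher at that level. Dnaja3 encodes the DnaJ protein of the mitochondrial matrix, and its probe lies at chr10:10999737-10999796 on the minus strand. Its signal was 2.55, 2.23, 3.26, 2.35, 2.69 and 2.29 in heroin replicates 1 to 6 (lowest 2.23, median 2.45). It was 1.57, 1.79, 1.6, 2.01 and 1.73 in saline replicates 2 to 6. The groups did not overlap, since the lowest heroin rat exceeded the highest saline rat, and heroin replicate 3 was highest. Dnaja3 was higher in heroin by 0.55 (limma SE 0.13, 1.46-fold, unadjusted p = 0.000802, adjusted p = 0.263). The exact permutation test over the 462 divisions of the rats gave p = 0.00216, two-sided, the smallest it can give. Heroin exceeded saline in 5 of 5 scans, by 0.41 to 0.86. After quantile normalization the difference was 0.43 (limma p = 0.00166, exact permutation p = 0.00216), the groups did not overlap, and 1.4-fold was not reached. Without heroin replicate 3 it was 0.48, also below 1.4-fold. Dnaja3 is on the list of changed genes that the study drew from these same arrays, so its value is no independent evidence.

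The other DnaJ A genes are cytosolic partners of Hsc70. Dnaja2 had a mean signal of 32.2 ± 2.33 (SD, n = 6) in heroin and 23.9 ± 6.26 (SD, n = 5) in saline. Its heroin rats lay between 28.9 and 35.2, and its saline rats at 18.8, 21.8, 18.8, 33.5 and 26.7. Saline replicate 5 thus lay within the heroin range, and the other saline rats lay below it. The difference was 0.46 (limma SE 0.16, unadjusted p = 0.00923, exact permutation p = 0.0173), with 0.21 after quantile normalization. Dnaja1, whose window carries 3 heat shock blocks, differed by 0.41 (SE 0.18, limma p = 0.0404, exact permutation p = 0.0736) and by 0.17 after quantile normalization. Dnaja4 differed by 0.42 (SE 0.15, limma p = 0.0138, exact permutation p = 0.0216), with heroin above saline in 5 of 5 scans. After quantile normalization Dnaja4 differed by 0.19 (limma p = 0.131, exact permutation p = 0.11), with heroin higher in 4 of 5. With the scan as a block the limma p of Dnaja1 was 0.0653, beside an exact permutation p of 0.0736 without it.

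Among the type B DnaJ proteins, which lack the zinc finger of type A, 10 of 11 probes lay above 0 (median 0.30). At an unadjusted limma p under 0.05, 3 were higher, against 15.7% of all tested probes. Dnajb5, a cytosolic J-protein, was measured by 2 probes. The dimmer, at chr5:59444714-59444773 on the plus strand, had signals of 1.77, 1.82, 2.65, 1.70, 2.34 and 1.76 in heroin replicates 1 to 6 (lowest 1.70, median 1.80). It had 1.58, 1.15, 1.27, 1.22 and 1.5 in saline replicates 2 to 6. The groups did not overlap, and heroin replicates 3 and 5 lay above the rest. This probe was higher in heroin by 0.57 (limma SE 0.15, 1.48-fold, unadjusted p = 0.00185, adjusted p = 0.263, exact permutation p = 0.00216). The difference was 0.47 after quantile normalization (limma p = 0.00732, exact permutation p = 0.0152), where the groups overlapped. It was 0.48 without heroin replicate 3, and heroin exceeded saline in 5 of 5 scans, by 0.21 to 1.2.

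The brighter Dnajb5 probe, at chr5:59446061-59446120, had signals of 10.7, 10.2, 13.1, 7.91, 9.53 and 6.52 in heroin and 6.79, 6.04, 7.79, 7.61 and 6.24 in saline. Heroin replicate 6 lay inside the saline range and heroin replicate 4 just above it. Its difference was 0.46 (limma SE 0.17, unadjusted p = 0.0153, exact permutation p = 0.0281), under 1.4-fold, and 0.23 after quantile normalization (limma p = 0.158). The average of both probes differed by 0.51 and passed both thresholds.

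**Figure D2:**
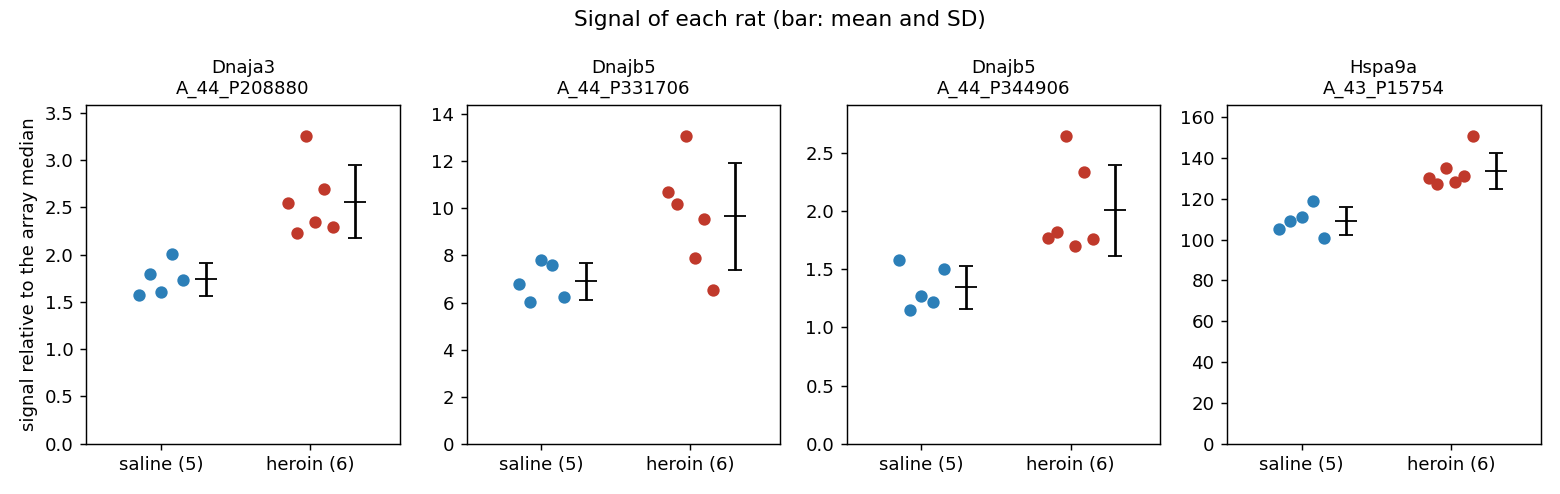
Signal relative to the array median (vertical axes, from 0) of each saline rat (blue, 5) and heroin rat (red, 6) for the probes of Dnaja3, Dnajb5 and the brighter Hspa9a probe, with mean and SD in black. Heroin rats lie above all saline rats for Dnaja3, for the dimmer Dnajb5 probe and for Hspa9a, and the groups overlap for the brighter Dnajb5 probe.

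The remaining type B genes gave smaller differences than the dimmer Dnajb5 probe. Dnajb4, a heat-inducible cytosolic J-protein, differed by 0.38 (SE 0.17, limma p = 0.0397, exact permutation p = 0.0649), by 0.17 after quantile normalization, and had a limma p of 0.0978 with the scan as a block. Dnajb13 differed by 0.01 (SE 0.14). Dnajb1, the main inducible Hsp40, differed by 0.26 (SE 0.18) on its brighter probe and 0.35 (SE 0.19) on its other probe. Dnajb6, which suppresses aggregation of polyglutamine proteins, differed by 0.26 (SE 0.16) on its brighter probe and by -0.02 (SE 0.16) on its other. Dnajb9, a J-protein of the endoplasmic reticulum, differed by 0.31 (SE 0.17), and Dnajb11, another of that compartment, by 0.27 (SE 0.15). Dnajb1, Dnajb6, Dnajb9 and Dnajb11 had no probe with an unadjusted limma p under 0.05.

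The type C DnaJ proteins share with the others only the J domain, and each serves a particular place in the cell. Their 22 probes had a median of 0.13, below that of all tested probes, with 17 above 0 and 5 below. At an unadjusted limma p under 0.05, 6 were higher, where 15.7% of all tested probes were. After quantile normalization 14 of the 22 lay below 0. Dnajc6 encodes auxilin, the neuronal J-protein that recruits Hsc70 to clathrin-coated vesicles. Its brightest probe, at chr5:122314130-122314189, lay between 151 and 172 in heroin (median 157). It was 103, 103, 119, 159 and 127 in saline replicates 2 to 6. Here too saline replicate 5 was the saline rat that lay among the heroin rats.

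The Dnajc6 difference on this probe was 0.39 (limma SE 0.13, unadjusted p = 0.00908, exact permutation p = 0.00866), higher in 5 of 5 scans, with 0.16 after quantile normalization (p = 0.198). Its 4 probes disagreed by more than those of any other member, with differences of 0.39, 0.36, -0.06 and -0.12. Among the 18 genes with more than 1 tested probe the median range between probes was 0.12, and that of Dnajc6 was 0.51. Dnajc5, the cysteine string protein of synaptic vesicles, differed by 0.04 (SE 0.11), with saline between 1.62 and 2.06 and heroin between 1.68 and 2.02. Dnajc5 lay below 0, at -0.07, after quantile normalization. Taken as a list, Hspa8, Dnajc5, Dnajc6 and Dnajc13, which act on clathrin or vesicles, had a median of 0.16 and 0 of 4 past both thresholds.

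The Hsp70 and Hsp110 class held 20 tested probes, of which 19 lay above 0, with a median of 0.28. At an unadjusted limma p under 0.05, 4 were higher, against 15.7% of all tested probes, and 0 passed both thresholds. Hspa8, the constitutive Hsc70, was measured by 4 probes that differed by 0.21, 0.37, 0.38 and 0.38. Its brightest probe had signals of 342 to 457 in heroin (median 385). It was 276, 314, 368, 412 and 327 in saline. The groups overlapped, with a difference of 0.21 (SE 0.13, limma p = 0.136, exact permutation p = 0.0887) that became -0.04 after quantile normalization.

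Hspa9a is mortalin, the Hsp70 of the mitochondrial matrix and the partner of Dnaja3. Its brighter probe, at chr18:27445396-27445455, had signals of 130, 127, 135, 128, 131 and 151 in heroin and 105, 109, 111, 119 and 101 in saline. The highest saline rat lay below the lowest heroin rat, and heroin replicate 6 stood above the rest. The difference was 0.29 (limma SE 0.11, 1.22-fold, unadjusted p = 0.0181, exact permutation p = 0.00216), under 1.4-fold. After quantile normalization it was 0.05 (limma p = 0.593, exact permutation p = 0.426) and the groups overlapped, and with the scan as a block the limma p was 0.0896. The other Hspa9a probe differed by 0.17 (SE 0.13), with heroin between 0.885 and 1.15 and saline between 0.79 and 1.17, so the groups overlapped there. The average of both probes differed by 0.23 and had an unadjusted limma p above 0.05. Across all members the groups did not overlap for 3 probes with heroin higher (the Dnaja3 probe, the dimmer Dnajb5 probe and the brighter Hspa9a probe), against 1.66% of all tested probes, and for 1 with heroin lower, against 0.129%. In 9 of the 77 heroin exceeded saline in all 5 scans, where 8.81% of all tested probes did so.

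Hspa4, an Hsp110 relative, was the Hsp70 class member with the smallest p. It lay between 129 and 143 in heroin and at 82.2, 101, 100, 141 and 105 in saline, so that saline replicate 5 again fell within the heroin range. The difference was 0.37 (SE 0.14, limma p = 0.0162, exact permutation p = 0.0152) on this probe, with 0.12 after quantile normalization. The other Hspa4 probe differed by 0.14 (SE 0.31), with heroin between 5.68 and 19.6 and saline between 6.93 and 16, and the average of both by 0.25. Hsph1, Hsp110 itself, differed by 0.38 (SE 0.20). Hspa5, or BiP, the Hsp70 of the endoplasmic reticulum, differed by 0.34 (SE 0.18), with heroin between 170 and 258 and saline between 108 and 222. Hspa2, best known from the testis, differed by 0.00 (SE 0.15), and by -0.22 after quantile normalization. The 5 genes of the endoplasmic reticulum tested (Hspa5, Dnajb9, Dnajb11, Dnajc3 and Dnajc10) had a median of 0.31. Of these, Dnajc10 alone had an unadjusted limma p under 0.05, with a difference of 0.43 (SE 0.15) on its brighter probe, and Dnajc3 differed by 0.14 (SE 0.16).

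The Hsp90 class is listed under older names, Hspca for the inducible and Hspcb for the constitutive cytosolic form. All 6 probes lay above 0, with a median of 0.27, and 0 had an unadjusted limma p under 0.05. Hspca differed by 0.16 (SE 0.16) on its brightest probe, for which 3 arrays had no usable spot (heroin replicate 6 and saline replicates 2 and 4) and 2 arrays were saturated. Its other probes differed by 0.25, 0.35 and 0.45. Hspcb differed by 0.08 (SE 0.16) on its brighter probe and 0.29 (SE 0.14) on its other. In heroin replicate 5 the brighter Hspcb probe read 390, where the other heroin rats read 632 to 731. It lay at -0.15 after quantile normalization.

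The mitochondrial chaperonins were the most even class, but 4 of their 5 probes measure the same gene, Hspd1. The 5 probes differed by 0.22 to 0.29, and 0 had an unadjusted limma p under 0.05. Hspd1, the chaperonin, differed by 0.27 (SE 0.15) on its brightest probe, and Hspe1, its lid, by 0.24 (SE 0.13). After quantile normalization these were 0.03 and 0.00. Taken with Hspa9a, Dnaja3, Dnajc11 and Dnajc15, the mitochondrial genes had a median of 0.25 over 6 genes, and Dnaja3 alone passed both thresholds.

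The small heat shock proteins, which bind unfolding proteins without ATP, were the most divided. Of their 6 tested probes 3 lay above 0 and 3 below, with a median of 0.06. Hspb8, which works with Bag3 in selective autophagy, differed by 0.35 (SE 0.14, limma p = 0.0225, exact permutation p = 0.0216). Heroin lay above saline in 5 of 5 scans, by 0.01 to 0.68. After quantile normalization Hspb8 differed by 0.17 (limma p = 0.142, exact permutation p = 0.113), with heroin higher in 3 of 5 scans. With the scan as a block its limma p was 0.0713, beside the exact permutation p of 0.0216 without it. Hspb6 differed by -0.06 (SE 0.22). Hspb7, a gene of heart and skeletal muscle named here after its values were seen, had a dim probe at chr5:160324324-160324383. It read 0.628, 0.533, 0.647, 0.644, 0.658 and 0.605 in heroin and 0.672, 0.791, 0.786, 0.719 and 0.713 in saline. Every heroin rat lay below every saline rat, the single such member. The difference was -0.25 (limma SE 0.11, unadjusted p = 0.0406, exact permutation p = 0.00216) and -0.17 (p = 0.121) after quantile normalization, where the groups overlapped. With the scan as a block the limma p of this probe was 0.131. The other Hspb7 probe was detected on no array.

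The binding partners that carry heat shock protein names (Hspa5bp1, Hspbp1 and Hspbap1) had a median of 0.39. Hspa5bp1, listed by RefSeq as Tmem132a and named for binding BiP, lay between 131 and 165 in heroin and at 123, 98.5, 101, 138 and 112 in saline. The difference was 0.39 (SE 0.13, limma p = 0.00902, exact permutation p = 0.0108), with 0.14 after quantile normalization.

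The widest departure of a rat from its group among the chaperones was in heroin replicate 3. Hspa1a encodes Hsp70 proper, the form that is scarce at rest and strongly induced by stress. Its brighter probe, at chr20:3958091-3958150 on the plus strand, had signals of 6.75, 4.23, 117, 4.72, 4.56 and 5.59 in heroin replicates 1 to 6. It had 2.55, 2.37, 6.95, 19.2 and 11.8 in saline replicates 2 to 6. Heroin replicate 3 was 24.8 times the median of the other heroin rats, and the next rat in order was saline replicate 5. The other Hspa1a probe, at chr20:3957065-3957124, showed the same rat, with 23.5 against 1.03 to 1.33 in the other heroin rats (19.7 times their median) and 0.816 to 2.35 in saline.

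The sign of the group difference of Hspa1a depended on this rat. The difference was 0.46 (SE 0.79) on the brighter probe and 0.58 (SE 0.67) on the other, with unadjusted limma p-values of 0.566 and 0.399, and without heroin replicate 3 it was -0.29 and -0.14. Heroin exceeded saline in 2 of 5 scans on either probe. The within-group SD of the brighter probe was 1.65 in log2, the 5th highest of all 25555 tested probes, and that of the other was 1.39, the 20th highest. Hspa1b is a near copy of Hspa1a, and cross-hybridisation between them was not tested.

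Hspb1, or Hsp27, a small heat shock protein that is also stress-induced, had signals of 10.4, 5.16, 23.3, 6.35, 3.89 and 10.6 in heroin and 3.70, 3.96, 6.17, 7.54 and 8.43 in saline. Heroin replicate 3 was again highest, at 3.67 times the median of the other heroin rats. The difference was 0.55 (SE 0.38, limma p = 0.165, exact permutation p = 0.268), and 0.26 without that rat. Dnajb1 read 43.8 in heroin replicate 3, against 23.7 to 30.8 in the other heroin rats and 20.5 to 34.8 in saline. Dnaja1 read 177 there, against 107 to 142 and 75.2 to 143. Hsph1 read 19.7, against 10.9 to 16.6 and 8.45 to 18.7. For the 11 heat-inducible genes, the ratio of heroin replicate 3 to the median of the other heroin rats was taken on the representing probes. It ran from 24.8 for Hspa1a to 1.12 for Hspcb, 1.1 for Hspe1 and 1 for Hspca, whose probe had values in 8 rats. On the other Hspca probes the ratio was 1.21, 1.28 and 1.14, and on the other Hspcb probe it was 1.38.

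Saline replicate 5 also lay above the median of the other saline rats in the 11 heat-inducible genes. It was not the highest saline rat for Hspb1, for Dnajb4 or on the dimmer Hspa1a probe. Its ratio to the median of the other saline rats was 4.04 for Hspa1a and 1.49 for Hspb1, below those of heroin replicate 3, and both rats stood at 1.52 for Dnajb1. In all the other genes the ratio of saline replicate 5 was the larger. It was 1.59 against 1.39 for Dnaja1, 1.76 against 1.33 for Hsph1, 1.29 against 1.19 for Hspa8 and 1.42 against 1.3 for Hspd1. It was 1.31 against 1.1 for Hspe1, 1.41 against 1.19 for Dnajb4, 1.23 against 1 for Hspca and 1.17 against 1.12 for Hspcb.

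**Figure D3:**
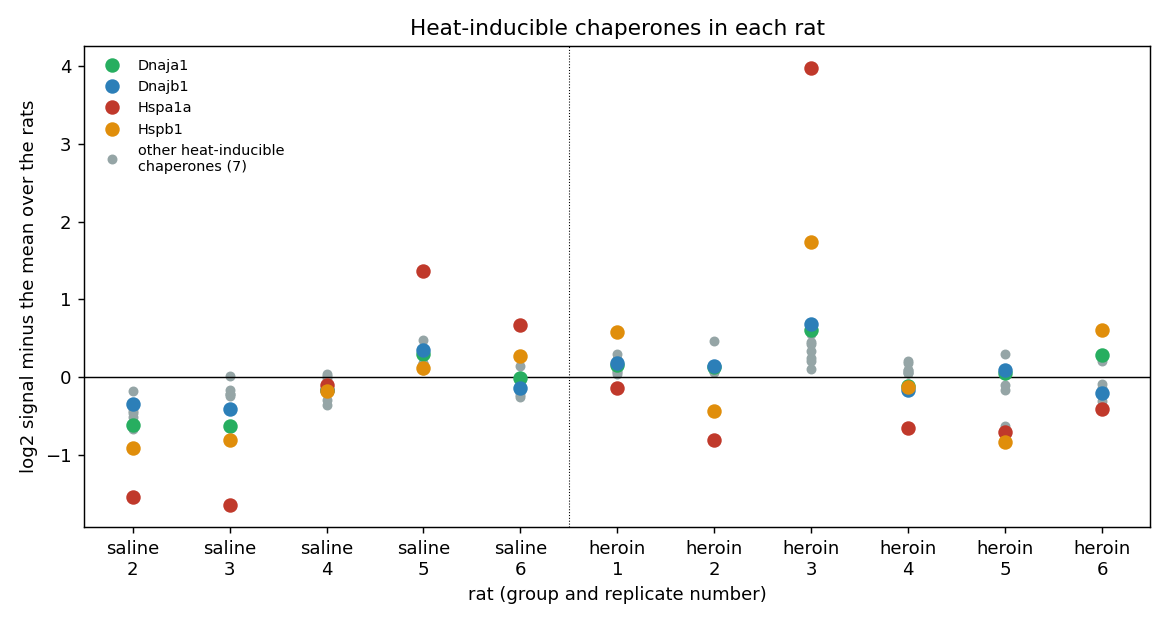
Log2 signal of 11 heat-inducible chaperones in each rat (horizontal axis, group and replicate number), as the difference from that gene's mean over the rats. Points are genes and Hspa1a, Hspb1, Dnajb1 and Dnaja1 are coloured. Heroin replicate 3 lies highest in 8 of the 11 genes, by most for Hspa1a and Hspb1, and saline replicate 5 is second for Hspa1a.

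Heroin replicate 3 had the highest signal of the 11 rats in 8 of the 11 heat-inducible genes (Hspa1a, Hspb1, Dnajb1, Dnaja1, Hspa8, Hsph1, Hspd1 and Hspe1), though for Hspe1 by 171.09 against 170.51 in the next rat. After quantile normalization it was highest in 8 as well, of which 7 were shared, with Hspca in place of Hspe1. Over all 77 members it was highest in 35 (45.5%), against 21.3% of all tested probes, and after quantile normalization in 26 (33.8%), against 10.8%. Heroin replicate 6 was the rat most often highest over all probes (26.9%), but it was highest in 15.6% of the members. With the same median scaling, heroin replicate 3 was also highest for markers outside the chaperones. These were the cortical neuron markers Snap25, Slc17a7, Camk2a, Nefl and Gad1, but not Syt1. They were also the oligodendrocyte markers Mbp, Mobp, Mag, Cnp1 and Mal, but not Plp, Mog or Cldn11. Of the microglial and endothelial markers it was highest only for Csf1r. With arrays scaled to their medians, the 5 genes with 3 heat shock blocks in their windows were all highest in heroin replicate 3. So were 3 of the 9 tested genes with a pair but no run of 3, and 10 of the 27 with no pair in the window. The median difference was 0.27, 0.26 and 0.21 in these groups. After quantile normalization Hspe1 was highest in heroin replicate 5. The 5 genes with 3 blocks are all among the 11 heat-inducible genes, and Hspd1 and Hspe1 share 1 element. Whether the blocks had a part in these values was not tested.

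The array of heroin replicate 3 had 231 marked spots, the most of any array (the others had 99 to 209), and a median intensity of 75, inside the range of the rest. Over the 11 heat-inducible genes its mean deviation from each gene's average was 0.85 in log2, and 0.73 after quantile normalization. Saline replicate 5 followed with 0.33 and saline replicate 2 was lowest with -0.61. After quantile normalization saline replicate 6 followed with 0.27, then saline replicate 5 with 0.24, and saline replicate 2 was lowest with -0.33. Neither a technical nor a biological source of this rat's values was tested.

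**Figure D4:**
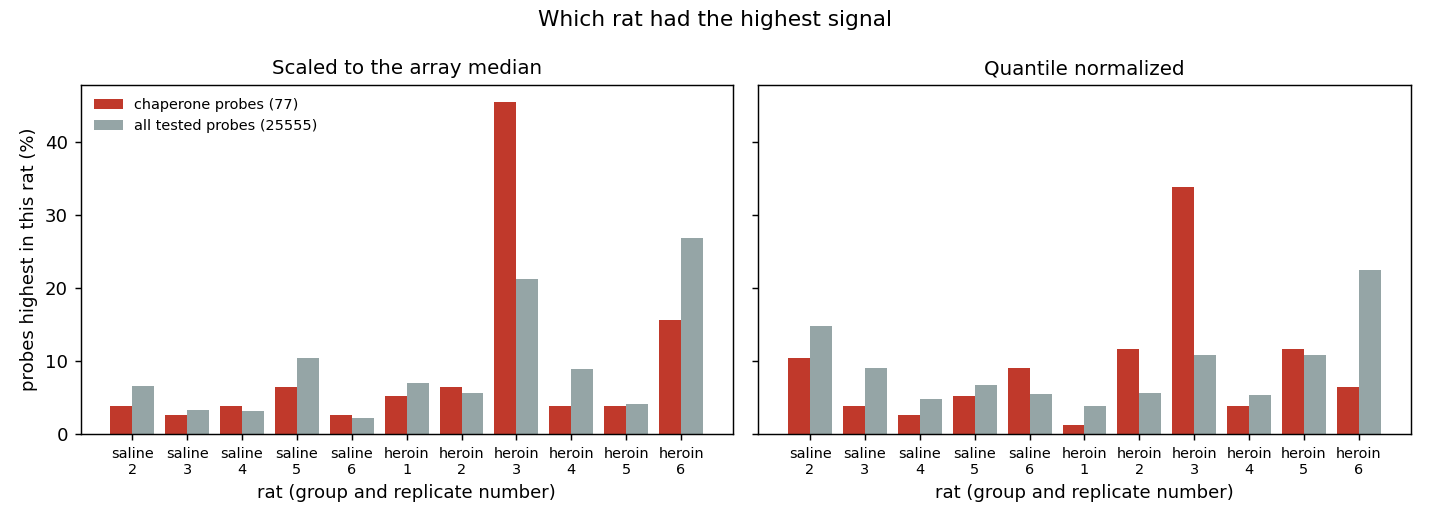
Percentage of probes for which each rat (horizontal axis, group and replicate number) had the highest signal of the 11, among the 77 chaperone probes (red) and all 25555 tested probes (grey), with arrays scaled to their medians (left) and quantile normalized (right). Heroin replicate 3 holds 45.5% and 33.8% of the chaperone probes, against 21.3% and 10.8% of all probes.

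The heat-inducible genes were also compared with Hspa1a over the rats. Pearson's r of log2 signal with Hspa1a ran from 0.32 to 0.86 over 10 genes, and Spearman's rho from 0.21 to 0.77, by permutation tests with 1e+05 resamples. All genes of a rat share its array. After adjustment over the 10 relations, 6 Pearson and 0 Spearman coefficients had an adjusted p under 0.05. The other tested probes were not compared with Hspa1a, so the share of all probes that would reach this level is not known. Whether these relations are particular to the chaperones was therefore not tested. Hspb1 was closest (r = 0.86, permutation p = 0.00149, adjusted p = 0.0099, rho = 0.77, permutation p = 0.00738, adjusted p = 0.0738), followed by Dnajb1 (r = 0.84, adjusted permutation p = 0.0099). Without heroin replicate 3 and saline replicate 5, the rats farthest from the median of Hspa1a, r ran from 0.01 to 0.75, with 0.75 for Hspb1, 0.66 for Dnaja1, 0.47 for Dnajb4 and 0.44 for Dnajb1. Leaving out the extremes of Hspa1a also narrows its range. Hspca entered with 8 rats.

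Lists of genes that work with the chaperones were set beside them. Of 12 tested co-chaperones of Hsp90, 12 lay above 0 with a median of 0.24, and 4 had an unadjusted limma p under 0.05, where 78.7% of all probes lay above 0 and 15.7% were higher at that level. Of 10 tested subunits of the cytosolic CCT chaperonin and prefoldin, 10 lay above 0 (median 0.26), 5 had an unadjusted limma p under 0.05, and Cct4 passed both thresholds, with 0.49 (SE 0.17) and 0.24 after quantile normalization. Folding enzymes of the endoplasmic reticulum (13 genes, median 0.23), cofactors of Hsp70 (8, median 0.18) and mitochondrial proteostasis genes (6, median 0.22) held 0 past both thresholds. The 4 heat shock factors had a median of 0.17, with Hsf1 at 0.13 (SE 0.13). Cryab, Hmox1 and Serpinh1, further heat-inducible genes, had a median of 0.19. After quantile normalization 0 genes of the co-chaperone and CCT lists had an unadjusted limma p under 0.05. After quantile normalization the medians of these lists lay between -0.03 and 0.04, beside 0.01 for all tested probes. With arrays scaled to their medians, heroin replicate 3 was the highest rat for most Hsp90 co-chaperones and most folding enzymes of the endoplasmic reticulum. It was highest for a minority of the Hsp70 cofactors, the mitochondrial proteostasis genes and the CCT list, and for no heat shock factor.

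Markers of other cells were set beside these values. For oligodendrocytes (8 tested markers, median 0.03), astrocytes (6, 0.17), microglia (5, 0.16), endothelium (5, 0.10) and blood (2, 0.11), 0 markers passed both thresholds and the summed signals of heroin and saline rats overlapped. Cortical neuron markers had a median of 0.32 (6 of 6 above 0), with sums of 289 to 472 in heroin and 254 to 387 in saline. Of the striatal markers 3 were tested, with a median of -0.21 and sums of 4.12 to 6.29 in heroin and 4.85 to 8.80 in saline. Their part in the chaperone values was not tested.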

How the data were processed

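The authors deposited, for each spot of each array, a processed signal intensity made by the Feature Extraction software (9.5.1.1 in the headers), corrected for background and not scaled between arrays, with flags as 0 or 1. The authors also deposited relative values, a ratio of each of 23670 probes to its median, which served as an alternative. Here, control and marked spots were left out, intensities under 5 were set to 5, log2 was taken, spots of a probe were averaged and the median of each array's non-control probes was subtracted. Probes detected (at least 0.5 of spots well above background) on all 11 arrays, with at least 2 usable arrays per group, were tested with limma 3.58.1 in R 4.3.3 (two-sided), and p-values were adjusted by Benjamini-Hochberg across all 25555. Thresholds were an unadjusted p under 0.02 and 1.4-fold, as in the study. Means ± SD are of linear signals. Fits were tested on simulated data with independent noise for each probe and no shift shared by the probes. That test therefore does not cover the shift that most probes shared here. The precision is limited by 6 and 5 arrays, and p-values measure the spread between these rats.

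The members, lists and tests were chosen with earlier results of these data known. Named were genes with a probe past both thresholds, a fixed set of principal chaperones, the gene of smallest p per class and genes whose probes differed by 0.5 or more. Dnaja4, Dnajb4, Dnajb13, Dnajc10 and Hspb7 were added after their values were seen. A gene was represented by its brightest tested probe unless another is named. Promoters are RefSeq's (GRCr8), matched by accession, symbol or synonym. Replicate numbers 2 to 6 share scans but no labelled litter or batch, and the deviations of same-numbered rats correlated from -0.24 to 0.38. The numbers were not taken as pairs. The saline rats were yoked to heroin rats, but the labels do not say which rats were yoked. These correlations cannot show whether same-numbered rats were, so the main fit may ignore a pairing of the design. Further array spots, and the rats tested after a shorter abstinence, were not analysed here.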

Additional observations from a re-analysis of the deposited data

Results flagged for a closer look

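In 7 of the 59 groups of rats examined for the genes described, a rat stood apart by more than the limit of Dixon's test, which chance passes in about 1 group in 20. Hspa1a read 117 in heroin replicate 3, and the next heroin rat read 6.75. Hspcb read 390 in heroin replicate 5, below the next value of 632. In heroin replicate 6 Dnajb9 (6.72, next 9.48) and Hspb6 (1.83, next 3.33) lay below the group and Hspa9a (151, next 135) above it. Dnajc5 read 2.06 in saline replicate 2, above the next value of 1.70, and Dnajc10 read 46.3 in saline replicate 5 (next 39.6). No source was tested for any of these.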

How the results depend on the processing

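The count of chaperone probes past both thresholds (2, beside 694 of all tested probes) was 0 with scaling to the 75th percentile (779 of all), quantile normalization (457), scaling to the 50th percentile of detected probes (675), normexp background correction (123), and quantile normalization with the replicate block (410). It was 15 with array weights (2446 of all), which gave 42 members at an adjusted p under 0.05 (8154 of all), where each other alternative gave 0 members. Leaving out 1 rat at a time gave 0 (without heroin replicate 3) to 13 (without saline replicate 5), and the remaining alternatives that keep all rats gave 2. With the replicate block the count was 2 (805 of all). With scaling to the 75th percentile the member median was 0.04 and that of all probes -0.03. In that setting 45 of 77 members lay above 0, against 41.7% of all probes.

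Signs turned in 7 of 30 genes, apart from the omissions of a rat. In the order 75th percentile, quantile normalization, percentile of detected probes, and quantile normalization with the replicate block, Dnajc3 was at -0.08, -0.09, -0.05 and -0.13, Dnajc5 at -0.18, -0.07, -0.15 and -0.06 (-0.02 after normexp), Hspcb at -0.14, -0.15, -0.11 and -0.18, and Hspa2, at 0.00 before, at -0.22, -0.22, -0.19 and -0.22 (-0.01 with array weights). Hspa8 was at -0.01 with the 75th percentile, -0.04 after quantile normalization and -0.03 with the block as well. Hspca was at -0.03 with the 75th percentile and -0.01 with detected probes, and Hspb6 at 0.19 with array weights. Leaving out 1 rat, Hspa1a ran from -0.29 to 0.87, Hspb6 from -0.14 to 0.14 and Hspa2 from -0.09 to 0.09. The cause was not tested. The random scan block and the block with quantile normalization were chosen after seeing the data. The 7 member probes not well above background on all arrays had no test.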
